A study of Mus musculus with 24 samples.

Results

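The 6 Tcrg libraries of this series, 3 from wild-type and 3 from Satb1 knockout thymocytes, were compared for how they pair the V and J segments of the T cell receptor gamma chain. They were taken by chain and genotype from the labels, and they are 6 of the 24 libraries of the series, which cover 4 receptor chains. All mice were on a C57BL/6 background and 4 to 12 weeks old. The labels give the knockout genotype as Satb1-/- and the series design names a conditional knockout, while the Cre driver is not given in the sources used here. Total RNA of thymus was reverse transcribed, and 5′ RACE products, which start at the 5′ end of the transcript, were amplified with a primer in the receptor's constant region. Each table gives, in percent of its library, how often 1 of 7 V segments was joined to 1 of 3 J segments, for 21 V–J pairs that sum to 100. Satb1, a nuclear protein that organises chromatin in thymocytes, is not measured in these tables, so the knockout could not be checked in them, nor could markers of thymocytes.

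Gamma chain genes are assembled in the thymus when the RAG recombinase joins a V segment to a J segment. The mouse locus is built from repeated cassettes, each with its own V, J and constant segments, and joins mostly stay within a cassette. The V segments are used in waves: TRGV5 and TRGV6 in the fetal thymus, by cells that settle in the skin (TRGV5) and in mucosal tissues (TRGV6), and TRGV4, TRGV1 and TRGV7 largely in later waves, with TRGV7 typical of intestinal gamma delta T cells. Gamma rearrangement also takes place in thymocytes that go on to the alpha beta lineage, so gamma transcripts of whole thymus do not come from gamma delta T cells alone. In such bulk RNA, fewer cells with a join and less RNA per cell cannot be told apart.

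All 10 segments of the tables were matched by name to GENCODE M21 (GRCm38), where the locus lies on chromosome 13. Cassette 1 holds TRGV7 (19178024 to 19178492), TRGV4 (19184974 to 19185506), TRGV6 (19190356 to 19190929), TRGV5 (19192278 to 19192725) and TRGJ1 (19210343 to 19210402), all on the plus strand. Cassette 3 follows with TRGV3 (19242845 to 19243301) and TRGJ3 (19257117 to 19257176), and TRGJ3 is not a column of the tables. Cassette 2 lies on the minus strand, with TRGJ2 at 19311245 to 19311304 and TRGV2 at 19336573 to 19337167. Cassette 4 is on the plus strand again, with TRGV1 at 19339989 to 19340454 and TRGJ4 at 19342152 to 19342212. The distance between V and J of the same cassette runs from 1.70 kb for TRGV1 with TRGJ4 to 31.9 kb for TRGV7 with TRGJ1.

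**Figure D1:**
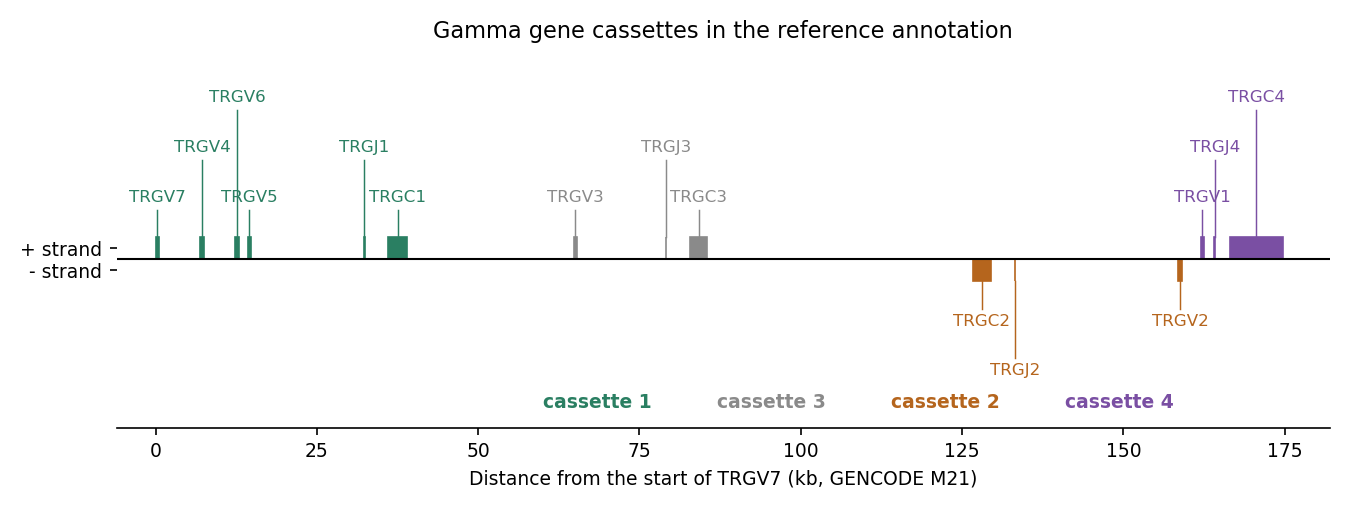
Gamma segments placed by distance from the start of TRGV7 in kb (x axis), with plus-strand segments above and minus-strand segments below the line and one colour per cassette. Cassette 2, with TRGV2 and TRGJ2, is the inverted one, and TRGV1 and TRGJ4 lie 1.70 kb apart.

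The J segments are shown because telling them apart decides whether a join counts as within or between cassettes. Capitals in TRGJ1 (chr13:19210343-19210402, plus strand), TRGJ2 (chr13:19311245-19311304, minus strand) and TRGJ3 (chr13:19257117-19257176, plus strand) mark the 8 positions at which these are not all the same. Capitals in TRGJ4 (chr13:19342152-19342212, plus strand) mark bases that differ from TRGJ2 when both are lined up at the 3′ end without gaps (20 bases, the extra first base included). All are GENCODE M21 transcripts on GRCm38, written 5′ to 3′.
TRGJ1: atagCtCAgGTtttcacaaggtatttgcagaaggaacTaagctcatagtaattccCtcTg
TRGJ2: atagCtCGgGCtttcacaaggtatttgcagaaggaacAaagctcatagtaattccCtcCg
TRGJ3: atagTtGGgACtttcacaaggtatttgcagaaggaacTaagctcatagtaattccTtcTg
TRGJ4: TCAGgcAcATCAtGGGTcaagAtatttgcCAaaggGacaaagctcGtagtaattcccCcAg
TRGJ1 and TRGJ2 share 56 of 60 bases (93.3%) and differ by A8G, T11C, T38A and T59C, with TRGJ1's base first and positions counted from 1 at the 5′ end of J. The 5′ end of J, nearest A8G and T11C, is the end that is trimmed during joining. With gaps allowed, TRGJ4 is 68.9% identical to TRGJ1 and to TRGJ2.

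The 3′ ends of the V segments, which enter the join, are shown for the most abundant ones and for TRGV3. Capitals mark positions at which TRGV1, TRGV2 and TRGV3 are not all the same. In TRGV4 they mark bases that differ from TRGV2. Each line holds the last 60 bases of the segment at the positions given above.
TRGV1: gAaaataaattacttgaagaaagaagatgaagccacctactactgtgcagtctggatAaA
TRGV2: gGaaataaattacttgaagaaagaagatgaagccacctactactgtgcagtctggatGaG
TRGV3: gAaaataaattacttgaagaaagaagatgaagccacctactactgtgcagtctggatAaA
TRGV4: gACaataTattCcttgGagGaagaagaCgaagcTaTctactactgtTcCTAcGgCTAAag
TRGV1 and TRGV3 are identical over these bases. Over their last 280 bases TRGV1, TRGV2 and TRGV3 are 93.6% to 94.3% identical to each other, against 66.9% to 69.9% between any of them and TRGV4. Of the constant regions, over the first 300 bases TRGC1 and TRGC2 are 97.3% identical, and TRGC4 is 82.7% identical to TRGC1. The primer site in the constant region is not given in the sources used here.

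The tables give no counts, so depth is unknown and no counting intervals were computed. The smallest value above 0 was 0.629%, 0.885% and 0.990% in wild-type libraries 1, 2 and 3 and 0.225%, 0.730% and 0.312% in knockout libraries 1, 2 and 3, and every value in a library was a whole multiple of it within 0.01. A pair listed at 0 may therefore lie below that step. If the smallest value stands for 1 counted unit, a whole wild-type library holds few units, since 1 unit is 0.629% or more of it. Shares of every size then carry counting error, and low shares rest on the fewest units. Depth then differs between libraries, with the finest steps in knockout libraries 1 and 3. The libraries numbered 1 stand apart in both genotypes by their low share of joins between cassettes, so results that rest on them are also given without them. Whether replicates came from separate mice is not stated, and p-values measure only the spread between these libraries.

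**Figure D2:**
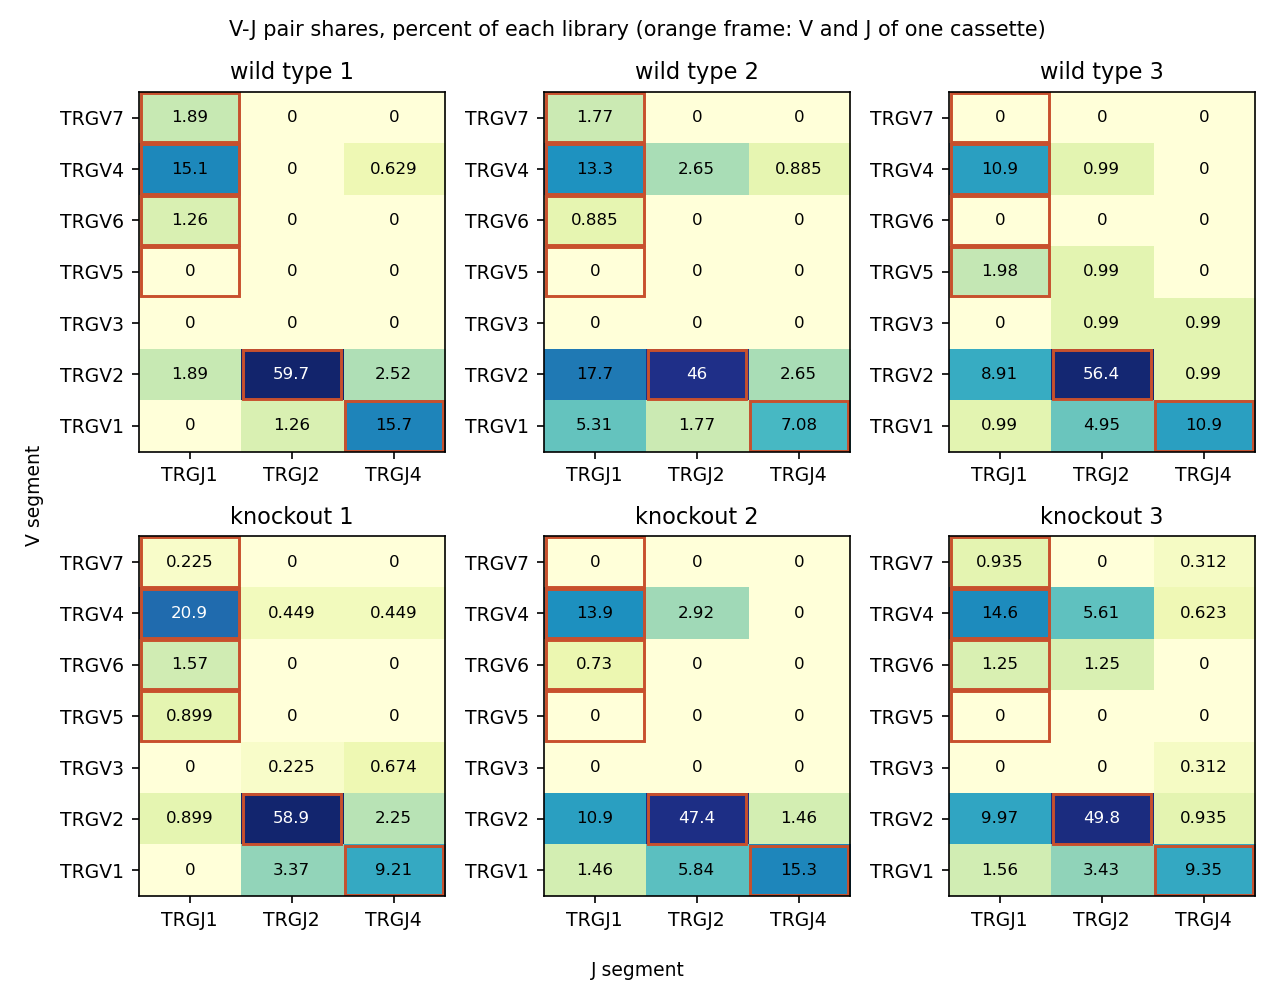
Share of each V–J pair in percent of the library (numbers), with V segments in rows, J segments in columns and 1 panel per library. Colour follows log2(percent + 1) and orange frames mark pairs of one cassette. TRGV2 with TRGJ2 is the leading pair in all 6 panels, and TRGV2 with TRGJ1 is low in both libraries numbered 1.

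Use of the V segments was compared first. TRGV2, the V segment of the inverted cassette, led in every library. Its mean share was lower and that of TRGV4 higher in the knockout, and neither difference passed the test on the log2 scale. TRGV2 made up 64.2%, 66.4% and 66.3% of the wild-type libraries and 62.02%, 59.9% and 60.7% of the knockout libraries. Every knockout library lay below every wild-type library, a mean of 65.6% ± 1.27 against 60.9% ± 1.09 (SD, n = 3 libraries per genotype, as for all means below). With limma on log2(percent + 0.225) the log2 difference was -0.11 (SE 0.08, Benjamini-Hochberg adjusted p = 0.533), and the 95% interval of the fold ran from 0.806 to 1.07. On untransformed percentages the same test called TRGV2 lower in the knockout, by -4.75 percentage points (SE 1.02, adjusted p = 0.0154). Whether TRGV2 passes thus depends on the scale, and its SE depends on which segments share the fit. With only V segments averaging 1% or more, the log2 difference was again -0.11, with SE 0.04 (limma adjusted p = 0.134). These SEs rest on the spread between libraries. Counting error was not computed, and it may be larger than the SDs of 1.27 and 1.09. In wild-type libraries the smallest step alone was 0.629 to 0.990 percentage points. The call on untransformed percentages may thus rest on too small a spread. TRGV2 was the only V segment whose groups did not overlap, 1 of 7 (14.3%).

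TRGV4, the main V segment of cassette 1 and one used by adult gamma delta T cells, held 15.7%, 16.8% and 11.9% of wild-type libraries and 21.8%, 16.8% and 20.9% of knockout libraries. The groups met at 16.8%, where knockout library 2 lay just under wild-type library 2. The means were 14.8% ± 2.59 and 19.8% ± 2.67 (log2 difference 0.42, SE 0.19, limma adjusted p = 0.533). The 95% interval of the fold, 0.948 to 1.89, includes no change. On untransformed percentages TRGV4 was higher by 5.01 percentage points (SE 1.76, limma adjusted p = 0.0852). With only V segments averaging 1% or more, its limma adjusted p on the log2 scale was 0.134. TRGV4 was thus not called in either fit, though its p-value also depended on scale and filter. Since shares of a library sum to 100, a lower share of TRGV2 has to be met by other segments, and these differences are not independent.

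TRGV1, the V segment of cassette 4, held 16.98%, 14.2% and 16.8% in wild-type libraries and 12.6%, 22.6% and 14.3% in knockout libraries. The knockout libraries spread on both sides of the wild-type range, and the means were 16.0% ± 1.59 and 16.5% ± 5.37 (limma adjusted p = 0.987). TRGV1, TRGV2 and TRGV4 together left little for the other 4 V segments, none of which reached 3% in any library.

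The fetal-wave segments TRGV5 and TRGV6 were present at low shares. TRGV6 was listed at 1.26%, 0.885% and 0% in wild-type libraries and at 1.57%, 0.730% and 2.49% in knockout libraries. Its ranges overlapped (log2 difference 1.22, SE 0.88, limma adjusted p = 0.533), and the difference was 0.38 without wild-type library 3. TRGV5 appeared only in wild-type library 3, at 2.97%, and in knockout library 1, at 0.899%, and was listed at 0 in the other 4 libraries (limma adjusted p = 0.987). Together both held 1.70% ± 1.11 of the wild-type libraries and 1.90% ± 1.01 of the knockout libraries (exact two-sided permutation p = 1, adjusted p = 1 over 11 single values), a difference of 0.194 percentage points that turned negative without any 1 of wild-type libraries 1 and 2 and knockout libraries 1 and 3, down to -0.216. Of these 2 segments 1 lay above and 1 below 0, and 0 were called.

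TRGV7, known from intestinal gamma delta T cells, was listed at 1.89%, 1.77% and 0% in wild-type libraries and at 0.225%, 0% and 1.25% in knockout libraries. Each genotype had 1 library listed at 0, so the groups overlapped (log2 difference -0.89, SE 1.22, limma adjusted p = 0.877). The log2 difference of TRGV7 ran from -1.95 without wild-type library 3 to -0.27 without knockout library 2. TRGV3, the only V segment of cassette 3, was above 0 in wild-type library 3 (1.98%) and in knockout libraries 1 (0.899%) and 3 (0.312%), with an adjusted p of 0.987 in limma. In all, limma called 0 of 7 V segments (0%), with 0 at an unadjusted p under 0.05, against the 1 call for TRGV2 on untransformed percentages. The median log2 difference was 0.00 over the 7 and -0.04 over the 4 V segments of cassette 1, of which 2 lay above and 2 below 0.

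**Figure D3:**
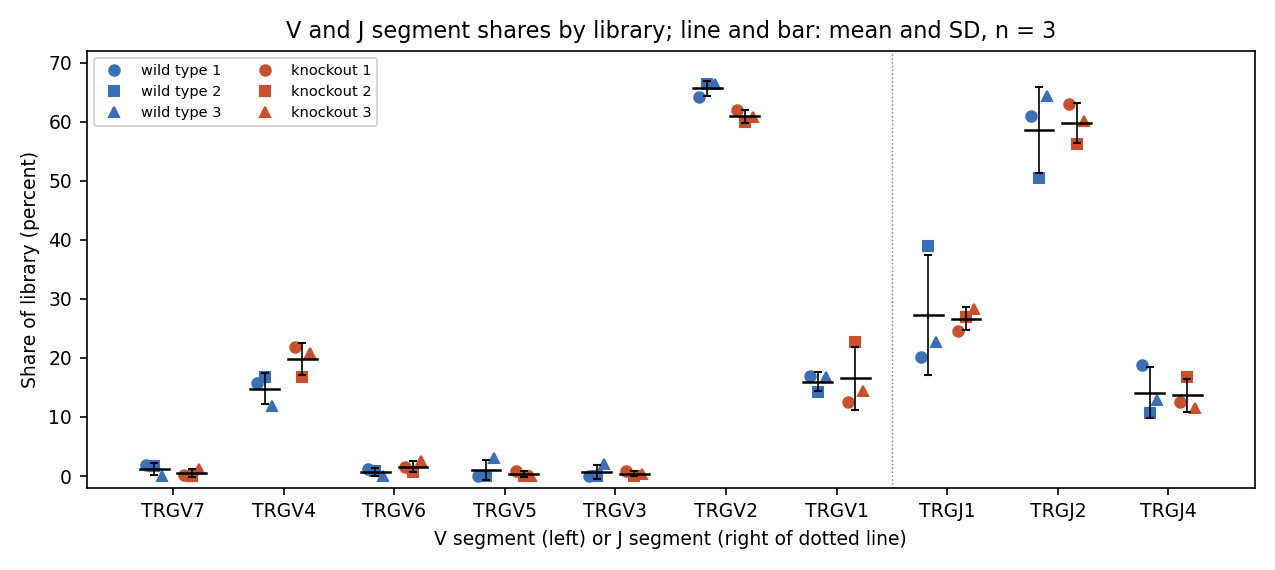
Share of the library in percent (y axis) for the 7 V and 3 J segments (x axis), with 1 symbol per library (circle, square and triangle for replicates 1, 2 and 3), blue for wild type and orange for knockout, and black lines and bars for mean and SD of 3 libraries. TRGV2 is the one segment whose symbols do not overlap between genotypes, at 64.2% to 66.4% against 59.9% to 62.02%.

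The J segments showed no difference between genotypes beyond the spread of the libraries. TRGJ2 held 61.0%, 50.4% and 64.4% of the wild-type libraries and 62.9%, 56.2% and 60.1% of the knockout libraries. All 3 knockout values lay inside the wild-type range (58.6% ± 7.26 and 59.8% ± 3.37, log2 difference 0.03, SE 0.18, limma adjusted p = 0.930). TRGJ1 held 20.1%, 38.9% and 22.8% in wild-type libraries and 24.5%, 27.01% and 28.3% in knockout libraries, with wild-type library 2 far above the rest. TRGJ4 held 18.9%, 10.6% and 12.9% in wild-type libraries and 12.6%, 16.8% and 11.5% in knockout libraries, again within the wild-type range. Limma called 0 of 3 J segments (0%), with 0 at an unadjusted p under 0.05. The 95% intervals of the folds were 0.679 to 1.52 for TRGJ1, 0.769 to 1.36 for TRGJ2 and 0.659 to 1.46 for TRGJ4, so differences of that size are not excluded.

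Joins within and between cassettes were then summed. Most assignments of every library joined V and J of the same cassette, at about the same mean share in both genotypes. The own-cassette share was 93.7%, 69.0% and 80.2% in wild-type libraries and 91.7%, 77.4% and 76.0% in knockout libraries. In both genotypes the library numbered 1 was the highest, and the other 4 lay between 69.0% and 80.2%. The means were 81.0% ± 12.4 and 81.7% ± 8.68, a difference of 0.712 percentage points (exact two-sided permutation p = 1, adjusted p = 1). For these and all other single values 3 against 3 libraries cannot give a p below 0.1, and all 11 adjusted values were 1. Without the libraries numbered 1 the means were 74.6% and 76.7%, a difference of 2.08 percentage points. The difference was -5.26 without wild-type library 2 and -4.29 without knockout library 1, so its sign rests on single libraries.

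Had V and J been combined at random from their shares in each library, the own-cassette share would have been 46.1%, 42.6% and 48.2% in wild-type libraries and 46.6%, 42.2% and 45.2% in knockout libraries. The measured shares exceeded these by 35.3 ± 10.95 percentage points in wild-type libraries and by 37.0 ± 7.29 in knockout libraries (exact permutation p = 0.8, adjusted p = 1). The difference was -2.72 without wild-type library 2 and -2.30 without knockout library 1. The excess was lowest in wild-type library 2, at 26.5, and highest in wild-type library 1, at 47.6.

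**Figure D4:**
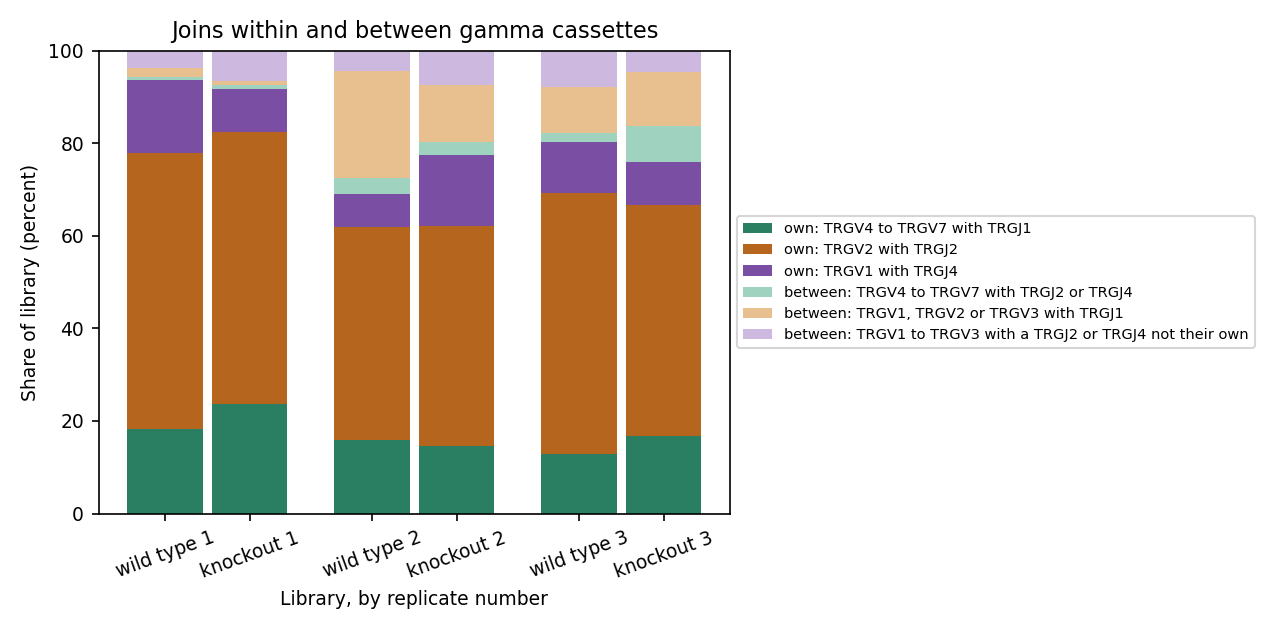
Stacked shares of 6 classes of join in percent of the library (y axis), libraries ordered by replicate number (x axis), dark colours for joins within a cassette and light colours for joins between cassettes. The dark part reaches 93.7% and 91.7% in the libraries numbered 1 and 69.0% to 80.2% in the others.

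Within cassettes, the largest class was TRGV2 with TRGJ2, the join of the inverted cassette 2. It held 59.7%, 46.0% and 56.4% of the wild-type libraries and 58.9%, 47.4% and 49.8% of the knockout libraries, overlapping throughout (54.1% ± 7.17 and 52.1% ± 6.03, log2 difference -0.05, SE 0.45, limma adjusted p = 0.944). The difference of -2.01 percentage points was 0.829 without wild-type library 1 and 0.293 without knockout library 2. TRGV4 with TRGJ1, the main join of cassette 1, held 15.1%, 13.3% and 10.9% in wild-type libraries and 20.9%, 13.9% and 14.6% in knockout libraries. Only knockout library 1 exceeded the wild-type range (log2 difference 0.32, SE 0.47, limma adjusted p = 0.898). The 4 V segments of cassette 1 together with TRGJ1 held 15.7% ± 2.69 and 18.3% ± 4.69 (exact permutation p = 0.5, adjusted p = 1). That difference of 2.66 percentage points shrank to 0.0307 without knockout library 1, and was 1.31 without both libraries numbered 1.

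TRGV1 with TRGJ4, the join of cassette 4 and the own-cassette join with the shortest distance, held 15.7%, 7.08% and 10.9% in wild-type libraries and 9.21%, 15.3% and 9.35% in knockout libraries. The groups overlapped (11.2% ± 4.33 and 11.3% ± 3.49, limma adjusted p = 0.944), and without both libraries numbered 1 the means were 8.99% and 12.3%. The small difference of 0.0646 percentage points turned negative, down to -2.01, without any 1 of wild-type libraries 2 and 3 and knockout library 2. TRGV6 with TRGJ1 was listed above 0 in 5 of 6 libraries, at 1.26%, 0.885% and 0% in wild-type libraries and 1.57%, 0.730% and 1.25% in knockout libraries. TRGV7 with TRGJ1 was at 1.89%, 1.77% and 0% in wild-type libraries and at 0.225%, 0% and 0.935% in knockout libraries. Both sets of libraries overlapped (limma adjusted p = 0.898 for each).

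Between cassettes, the leading pair was TRGV2 with TRGJ1, which combines the V segment of cassette 2 with the J segment of cassette 1, 126 kb apart and on opposite strands in the reference. It held 1.89%, 17.7% and 8.91% of the wild-type libraries and 0.899%, 10.9% and 9.97% of the knockout libraries. Both libraries numbered 1 lay under 2%, and the other 4 between 8.91% and 17.7%, and the SD within each genotype exceeded the difference of the means (9.50% ± 7.92 and 7.27% ± 5.54, log2 difference -0.48, SE 1.19, limma adjusted p = 0.898). TRGV1 with TRGJ1 was also lowest in these libraries: it was listed at 0 in both libraries numbered 1, and at 5.31% and 0.990% in wild-type and 1.46% and 1.56% in knockout libraries 2 and 3. Joins of TRGV1, TRGV2 or TRGV3 to TRGJ1 together held 11.6% ± 10.7 and 8.28% ± 6.41 (exact permutation p = 0.8, adjusted p = 1), a difference of -3.32 percentage points that was 2.38 without wild-type library 2 and 0.369 without knockout library 1. It was -8.18 without wild-type library 1 and -4.49 without both libraries numbered 1.

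TRGV4 with TRGJ2, the exchange in the other direction, was listed at 0%, 2.65% and 0.990% in wild-type libraries and at 0.449%, 2.92% and 5.61% in knockout libraries. The libraries numbered 1 were again the lowest of their genotype, and the groups overlapped (log2 difference 1.33, SE 1.197, limma adjusted p = 0.898). The log2 difference was 0.31 without wild-type library 1, 0.66 without knockout library 3, 2.15 without wild-type library 2 and 2.21 without knockout library 1. V segments of cassette 1 joined to TRGJ2 or TRGJ4 held 2.05% ± 1.46 in wild-type libraries and 3.87% ± 3.54 in knockout libraries (exact permutation p = 0.6, adjusted p = 1). Knockout library 3, with 7.79%, raised that mean, and without it the difference was -0.140 instead of 1.82 percentage points.

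Among cassettes 2, 3 and 4, the leading pairs were TRGV1 with TRGJ2 and TRGV2 with TRGJ4. TRGV1 with TRGJ2 held 1.26%, 1.77% and 4.95% in wild-type libraries and 3.37%, 5.84% and 3.43% in knockout libraries (log2 difference 0.79, SE 0.64, limma adjusted p = 0.898). TRGV2 with TRGJ4 held 2.52%, 2.65% and 0.990% in wild-type libraries and 2.25%, 1.46% and 0.935% in knockout libraries, and was above 0 in all 6 libraries. The groups overlapped for both pairs. TRGV1 with TRGJ2 was lowest in library 1 of each genotype, and TRGV2 with TRGJ4 in library 3 of each. The class as a whole held 5.37% ± 2.23 and 6.16% ± 1.35 (exact permutation p = 0.7, adjusted p = 1), a difference of 0.790 percentage points that was -0.00978 without wild-type library 1 and -0.187 without both libraries numbered 1.

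Of the 21 pairs, 17 were above 0 in at least 1 library: all 6 own-cassette pairs and 11 of the 15 between-cassette pairs. The 4 pairs listed at 0 throughout were TRGV7 with TRGJ2, TRGV6 with TRGJ4, TRGV5 with TRGJ4 and TRGV3 with TRGJ1. Besides the 10 pairs that averaged 1% or more in either genotype, all described above, the other 7 reached at most 1.98% in a library: TRGV4 and TRGV7 with TRGJ4, TRGV5 with TRGJ1, TRGV5 and TRGV6 with TRGJ2, and TRGV3 with TRGJ2 and with TRGJ4. TRGV6 with TRGJ2 (1.25%) and TRGV7 with TRGJ4 (0.312%) were above 0 in knockout library 3 alone, and TRGV5 with TRGJ2 (0.990%) in wild-type library 3 alone. Each of the last 2 values equals the smallest step of its library.

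Limma called 0 of the 16 pairs with a mean of at least 0.1% (0%), with 0 at an unadjusted p under 0.05. The groups did not overlap for 0 of the 16. The median log2 difference was -0.01 over the 6 own-cassette pairs, with 3 above and 3 below 0. Over the 10 between-cassette pairs it was -0.29, with 4 above and 6 below 0, and over all 16 it was -0.15. The 95% interval of the fold was 0.573 to 2.70 for the abundant TRGV4 with TRGJ1 and 0.341 to 18.4 for the rarer TRGV4 with TRGJ2. The number of pairs above 0 was 9, 11 and 12 in wild-type libraries and 13, 9 and 14 in knockout libraries (exact permutation p = 0.6, adjusted p = 1), and the 2 highest counts were in the 2 libraries with the smallest steps. Pair entropy, which rises as assignments spread over more pairs, averaged 2.16 ± 0.309 bits over wild-type and 2.21 ± 0.274 over knockout libraries (exact permutation p = 0.8, adjusted p = 1). Its difference of 0.0506 bits was -0.113 without wild-type library 1 and -0.062 without knockout library 3.

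For the abundant TRGV1, TRGV2 and TRGV4, the J segment of the own cassette was the main partner in all 6 libraries, to a degree that varied between libraries. Of TRGV2 assignments 93.1%, 69.3% and 85.1% carried TRGJ2 in wild-type libraries and 94.9%, 79.3% and 82.1% in knockout libraries. Of TRGV4 assignments 96%, 78.9% and 91.7% carried TRGJ1 in wild-type libraries and 95.9%, 82.6% and 70.1% in knockout libraries. For both V segments the libraries numbered 1 held the highest own share of their genotype. TRGV1 kept its own TRGJ4 less closely, in 92.6%, 50.0% and 64.7% of its wild-type and 73.2%, 67.7% and 65.2% of its knockout assignments.

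Seen from the J segments, TRGJ1 varied most. V segments of its own cassette made up 90.6%, 40.9% and 56.5% of TRGJ1 assignments in wild-type libraries and 96.3%, 54.1% and 59.3% in knockout libraries. In wild-type library 2 TRGV2 was thus a more frequent partner of TRGJ1 (45.5%) than TRGV4 was (34.1%). TRGJ2 was joined to TRGV2 in 82.9% to 97.9% of its assignments over the 6 libraries, and TRGJ4 to TRGV1 in 66.7% to 91.3%.

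The orientation of V and J in the reference was not used to choose the libraries or the classes, and it was looked at after the values were seen, so it is given as a description. A V segment upstream of a J segment on the same strand can be joined by deletion of the DNA between them, and segments on opposite strands by inversion. A V segment downstream of a J segment on the same strand can be joined by neither while keeping the join in the chromosome. All 6 own-cassette pairs lie in the first arrangement. The 8 between-cassette pairs on opposite strands held 5.66%, 24.8% and 17.8% of the wild-type libraries and 7.19%, 21.2% and 21.2% of the knockout libraries. The 5 between-cassette pairs with V upstream on the same strand, all with TRGJ4, held at most 1.25% in any library. TRGV1 with TRGJ1, which has the V segment downstream, reached 5.31% in wild-type library 2, and TRGV3 with TRGJ1, the other such pair, was listed at 0. Joins on opposite strands made up most of the between-cassette joins in all 6 libraries. These 8 pairs are also the between-cassette pairs that hold TRGV2 or TRGJ2, the most abundant V and J segments. Orientation and abundance cannot be told apart here, and the part of orientation was not tested.

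Joins that exchange the similar TRGJ1 and TRGJ2 between cassettes 1 and 2 varied widely between libraries of one genotype. TRGV2 with TRGJ1 and V segments of cassette 1 with TRGJ2 together held 1.89%, 20.4% and 10.9% of the wild-type libraries and 1.35%, 13.9% and 16.8% of the knockout libraries. They made up 30.0% and 16.2% of between-cassette joins in the libraries numbered 1, wild type and knockout, and 55.0% to 70.1% in the other 4. With TRGJ1 and TRGJ2 summed, a change that can only raise it, the own-cassette share was 95.6%, 89.4% and 91.1% in wild-type libraries and 93.0%, 91.2% and 92.8% in knockout libraries. The range over the 6 libraries then ran from 89.4% to 95.6%, where it had run from 69.0% to 93.7%. TRGJ1 and TRGJ2 together held 81.1% to 89.4% of every library, so a high summed share follows in part from their abundance. The summed share under random combination was not computed. TRGJ1 and TRGJ2 differ at 4 of 60 bases, as shown above, and the part of J assignment in the joins that exchange them was not tested.

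**Figure D5:**
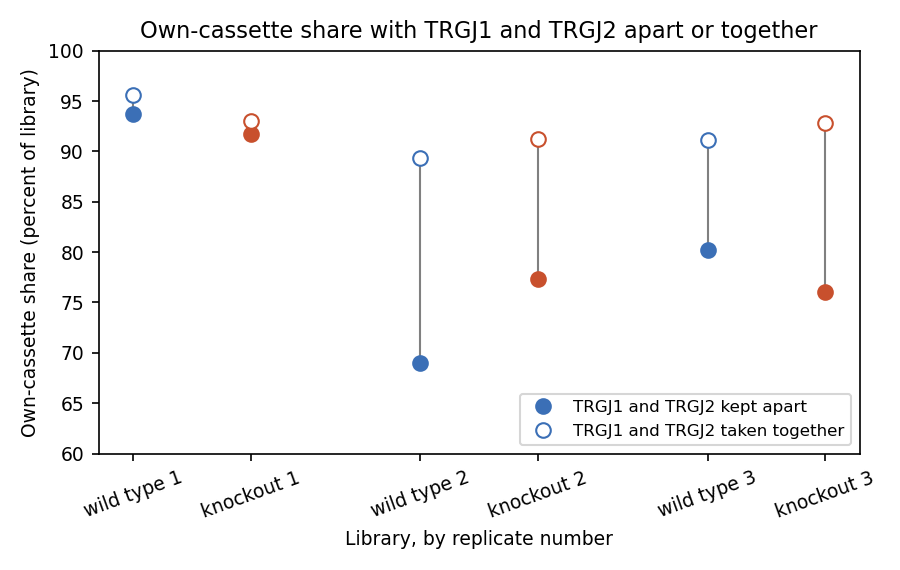
Own-cassette share in percent of the library (y axis, from 60 to 100), libraries ordered by replicate number (x axis), blue for wild type and orange for knockout. Filled circles keep TRGJ1 and TRGJ2 apart and run from 69.0% to 93.7%, and open circles sum them and run from 89.4% to 95.6%.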

How the data were processed

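The deposited values are in percent: per the labels, total RNA was reverse transcribed, amplified by 5′ RACE and touchdown PCR and sequenced in paired 150 nt reads, and the authors deposited 1 table of V by J segments per library. Fastp is named in the submitters' processing notes without a version. Not given in the sources used here are the aligner, the segment caller, the build and whether reads or clonotypes were counted, and no molecular identifiers are named. The total row and column were dropped.

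Libraries were grouped by their titles. Features averaging 0.1% or more over the 6 libraries (V segments summed over J, J segments summed over V, and pairs) were tested with limma 3.58.1 (R 4.3.3). Values entered as log2(percent + 0.225), where 0.225% is the lowest nonzero value in any of these libraries. P-values were adjusted by Benjamini-Hochberg within each kind of feature, with calls at 0.05. Fold changes on this scale understate those of low shares. The same kind of limma fit was also run on simulated log2 values with known differences, to check the sign and size of the estimates. These values were drawn from normal distributions, without the steps, zeros or fixed sum of the libraries. The spread of noisier pairs was lowered to the median, and the planted differences were larger than any main estimate here. The check therefore does not show what differences these libraries could detect. The 11 single values were each given an exact permutation test (two-sided, 20 arrangements), adjusted over the 11. Named were all segments, and pairs that averaged 1% or more in either genotype. Cassettes follow the known order of the locus, and TRGV3 counted as joined between cassettes. Members, lists and tests were chosen with earlier results of these data known. Leaving out both libraries numbered 1, the shares by orientation and the summed TRGJ1 and TRGJ2 exchanges were chosen after the values were seen.

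Sequences and positions come from GENCODE M21 and were read by name, with 1 transcript per segment. Identities were computed with Biopython 1.88 by global alignment. Tables and plots were made in Python 3.11.15 (matplotlib 3.10.9, scipy 1.17.1, pandas 2.3.3, numpy 2.4.6). Alternatives were a smaller (0.0225%) and a larger (1%) pseudocount, no filter and one of 1%, untransformed percentages, centred log-ratios, leaving out each library, equal replicate numbers as a block, each pair counted once, only pairs of 0.990% or more, TRGV3 left out, and summed TRGJ1 and TRGJ2 or TRGV1, TRGV2 and TRGV3.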

Additional observations from a re-analysis of the deposited data

How the results depend on the processing

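Of 44 alternative limma fits 1 made a call, that on untransformed percentages, which called 1 V segment (TRGV2, lower in the knockout). None of the 11 single values could pass 0.05 in this design, so their p-values say nothing about stability, and each changed sign under at least 1 alternative. Leaving out 1 library at a time, the differences (knockout minus wild type) ran from -5.26 to 7.08 percentage points for the own-cassette share, from 0.0307 to 4.53 for own joins of cassette 1, from -6.04 to 0.829 for cassette 2 and from -2.01 to 2.31 for cassette 4. They ran from -0.140 to 3.30 for cassette 1 V segments with other J segments, from -8.18 to 2.38 for TRGV1, TRGV2 or TRGV3 with TRGJ1, from -0.00978 to 2.06 for joins between cassettes 2, 3 and 4, from -0.216 to 0.827 for the fetal-wave V segments, from -2.72 to 7.84 for the excess over the product of V and J shares, and from -0.113 to 0.203 bits for entropy.

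With each pair counted once the difference was -2.68 for the own-cassette share, -0.951 for cassette 1, -0.863 for cassette 4 and -1.57 for the excess. Over pairs at or above 0.990% it was -0.00942 for the fetal-wave V segments, -2 for pairs above 0 and -0.0721 bits for entropy. Without both libraries numbered 1 it was -0.187 for joins between cassettes 2, 3 and 4, and -0.317 for the fetal-wave V segments. Of 20 named segments and pairs, 10 kept their sign throughout. Among these the log2 difference still moved on leaving out 1 library: 0.27 to 0.54 for TRGV4, 0.38 to 1.74 for TRGV6, -1.95 to -0.27 for TRGV7, 0.13 to 0.43 for TRGV4 with TRGJ1, 0.31 to 2.21 for TRGV4 with TRGJ2, 0.09 to 1.45 for TRGV6 with TRGJ1, -2.07 to -0.44 for TRGV7 with TRGJ1, 0.42 to 1.32 for TRGV1 with TRGJ2 and -0.73 to -0.06 for TRGV2 with TRGJ4. TRGV2, also among the 10, moved least, from -0.12 to -0.10. In log2 units, leaving out 1 library gave -1.28 to 0.77 for TRGV5, -0.47 to 1.19 for TRGV3, -0.24 to 0.17 for TRGV1, -0.16 to 0.31 for TRGJ1, -0.0699 to 0.11 for TRGJ2, -0.21 to 0.20 for TRGJ4, -1.34 to 0.60 for TRGV2 with TRGJ1, -0.16 to 0.0243 for TRGV2 with TRGJ2, -1.56 to 0.75 for TRGV1 with TRGJ1 and -0.25 to 0.31 for TRGV1 with TRGJ4. Signs also changed for TRGV3 with a larger pseudocount (-0.0863), on untransformed percentages (-0.257 points) and without both libraries numbered 1 (-1.02), for TRGV1 with centred log-ratios (-0.0296), for TRGJ1 on untransformed percentages (-0.662 points) and without both libraries numbered 1 (-0.11), and for TRGJ4 without both (0.25). The causes were not tested.

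Equal replicate numbers were not treated as pairs in the main fits. Over the 16 V–J pairs the residuals of libraries with equal numbers correlated at 0.529, 0.375 and -0.385, and over V segments at -0.844, 0.00966 and -0.843. For unequal numbers the correlations ran from -0.745 to 0.672 over pairs and from -0.849 to 0.850 over V segments. With the replicate block limma called 0 V segments, 0 J segments and 0 pairs, as without it, and the paired difference in own-cassette share was 0.712. Depth is not stated, and the smallest steps of 0.225% to 0.990% limit what can be said of pairs near or below them.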
